A study of Mus musculus with 6 samples.

Results

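The clustered histone genes are the short, mostly intronless genes that encode the linker histone H1 and the core histones H2A, H2B, H3 and H4, and in the mouse they lie in 4 genomic clusters named Hist1 to Hist4. They were taken here as the protein-coding rows of the deposited table whose symbol starts with Hist1, Hist2, Hist3 or Hist4, which gave 67 of 54532 genes. Of these, 6 encode H1, 18 encode H2A, 18 encode H2B, 12 encode H3 and 13 encode H4. The Hist1 cluster on chromosome 13 holds 54 of them, Hist2 on chromosome 3 holds 10, Hist3 on chromosome 11 holds 2 and Hist4 on chromosome 6 holds 1.

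RNA was sequenced from primary mouse peritoneal macrophages that had been elicited with thioglycollate, collected on day 4 and enriched by adherence for 6 h. The 3 control libraries are labelled shControl in the title and WT as genotype. The 3 libraries of the other group are labelled SAHH-KO in the title and SAHH knockdown as genotype, and they target S-adenosylhomocysteine hydrolase, the enzyme encoded by Ahcy that removes a by-product and inhibitor of methyltransferases. All 6 libraries came from cells exposed for 8 h to 2 ng/mL interferon-γ together with 10 ng/mL lipopolysaccharide, so every value is from stimulated cells. The labels give no mouse strain, sex or age and no vector or deletion, and they do not say whether replicates are different animals or cultures. The spread behind the p-values is thus that between these samples and may be technical. Libraries were built with a SMARTer mRNA kit, from 1.3 µg of total RNA each.

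Most clustered histone genes are transcribed when a cell copies its DNA, and their messenger RNAs carry no poly(A) tail. The 3′ end is instead cut just after a short stem-loop, which is bound by the stem-loop binding protein SLBP and governs processing, translation and decay of the transcript. Some of these genes can also be transcribed past the stem-loop to a downstream poly(A) signal, which yields a polyadenylated messenger RNA, and this form is known from cells that do not divide. A library made from poly(A) RNA therefore sees mainly that second form. Genes for variant histones outside the clusters, such as H2afz and H3f3b, have introns or ordinary poly(A) tails.

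The stem-loop was searched for in the GENCODE M21 transcripts by its degenerate 16-base consensus, and 45 of the 67 members had a match in their longest coding transcript. Only 8 versions of it occurred, which differed by class. The 3 most frequent ones are shown because they are the element that sets these messenger RNAs apart. Of the 45, 25 members of classes H1, H2A, H2B and H3 carried the first, 7 H4 members the second, and 6 members of classes H1, H2B and H3 the third (capitals throughout, the stem-loop).
most frequent in H1, H2A, H2B and H3: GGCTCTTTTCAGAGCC
most frequent in H4: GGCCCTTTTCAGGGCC
also in H1, H2B and H3: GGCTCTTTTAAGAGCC
All of the H4 members with a match had a version found in no other class.

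For the members with the most reads, the stem-loop and the end of the annotated transcript are shown because they tell whether the gene model stops at the stem-loop or continues. Hist1h1c, Hist1h4i and Hist1h2be had the stem-loop (in capitals, with 5 bases on each side).
Hist1h1c: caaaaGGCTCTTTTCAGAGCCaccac
Hist1h4i: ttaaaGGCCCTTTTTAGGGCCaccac
Hist1h2be: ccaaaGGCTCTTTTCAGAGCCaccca
Their models ran on for 840, 330 and 1861 bases after it. The last 30 bases of the models of the 5 members with the most reads were as follows, with a poly(A) signal (AATAAA or ATTAAA, sense strand) in capitals where the last 30 bases held one.
Hist1h1c: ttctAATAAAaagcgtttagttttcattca
Hist1h2bc: tccatgactgactgaggagccttgggcaag
Hist2h2be: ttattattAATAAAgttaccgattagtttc
Hist1h4i: tctgtttacATTAAAagtattctatgctaa
Hist1h2be: tgtgttccttATTAAAgcattcctgattga
A signal was thus present at the end of 4 of these 5 models. Hist1h2bc, a gene of 2 exons, had neither the stem-loop nor a signal there, and Hist2h2be had the signal without a match to the stem-loop. RefSeq (GRCm38.p6) gives Hist1h1c a length of 725 bases where the deposited model has 1560, and Hist1h4i a length of 403 bases where it has 727, so the models used for counting include the part after the stem-loop.

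Very few reads fell on the clustered histone genes. They held 1884 of the assigned reads of all 6 libraries, 19.3 CPM (read counts scaled to library size without regard to gene length, here by assigned reads). No read was counted for 16 members in any library, 32 members had 1 to 9 reads over all libraries, and 19 had at least 10. A count of 0 allows up to 3 reads over the 6 libraries. Only 4 members reached 1 FPKM (fragments per kilobase at a fixed library size, which is the deposited unit) in any library. Other RNAs that end without a poly(A) tail also had few reads. Those listed here are short, from 102 bases (Rny3) to 423 bases (Terc), and the part of length in their counts was not tested. Of 8 such RNAs, Rmrp, Rpph1, Rnu11, Rnu12 and Rny3 had no read, and Rn7sk, an abundant nuclear RNA in most cells, had 30 reads over all libraries.

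Depth was even between the groups. Between 15540442 and 16676534 reads were assigned to genes in control, and between 15856261 and 17748745 in SAHH-KO. Ahcy, the targeted gene, stood at 25.8, 22.6 and 24.4 FPKM in control and at 5.51, 5.50 and 6.23 FPKM in SAHH-KO. The macrophage markers summed to 8344 to 8645 FPKM in control and 9320 to 10590 FPKM in SAHH-KO, with 7 of 8 at a mean of at least 1 FPKM, 4 called higher, none called lower, and Mertk near 0. Markers of B, T and NK, mast, dendritic, mesothelial and erythroid cells, eosinophils and fibroblasts each summed to at most 0.363 FPKM in any library. The neutrophil list summed to 3.59 to 4.01 FPKM in control and 0.343 to 0.605 FPKM in SAHH-KO, mostly through Mmp8 at 3.24 against 0.0165 FPKM, while the defining Ly6g, Retnlg and Ngp had no read. The part of these differences in the results below was not tested. In bulk RNA, fewer cells with a transcript and less of it per cell cannot be told apart.

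A handful of members supplied most of the reads. Hist1h1c, which encodes the linker histone H1.2, held 54.1% of all member reads, and together with Hist1h2bc, Hist2h2be and Hist1h4i it held 78.2%. Members whose model ran over 100 bases past the stem-loop numbered 23 and had 1316 reads, 69.9% of the total, against 104 reads (5.52%) for the 22 members whose model stopped within 100 bases of it. Without Hist1h1c the first group had 297 reads, and the median level per length was 0.0600 FPKM in the first group and 0.0704 FPKM in the second. The models of 17 members had a poly(A) signal in their last 40 bases, and these held 73.4% of the reads. The other 50 members held 26.6%. Hist1h1c decided that share, since without it the 17 had 364 reads and the 50 had 501.

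**Figure D1:**
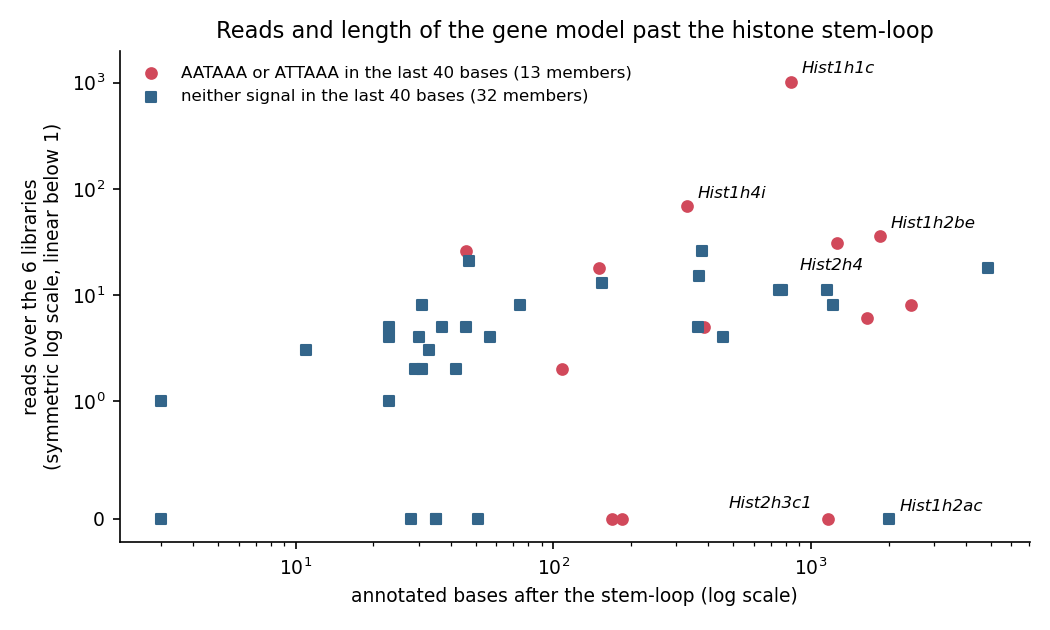
Reads over the 6 libraries (vertical axis, symmetric log scale) against the annotated bases after the stem-loop (horizontal axis, log scale) for the 45 members in which a stem-loop was found; red circles have a poly(A) signal in the last 40 bases of the model, blue squares do not. Hist1h1c stands at 1019 reads and Hist1h4i at 69, while Hist1h2ac, with 2010 bases after its stem-loop, had none.

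Identity between copies limits what can be counted. At least 50% of the 50-base words of the transcripts were found in another gene, in either orientation, for 34 of the 67 members. These held 8.65% of the member reads. Among the 16 members without a read, 11 passed that mark, and Hist2h2aa1, Hist2h2aa2, Hist2h3c1, Hist2h3b and Hist2h2bb had all of their words in another gene and all of their exon bases inside another annotated gene. That overlap is for either strand. On the same strand it was 100% for Hist2h3c1, 90.3% for Hist2h2aa1, 59.3% for Hist2h2bb and 0% for Hist2h2aa2 and Hist2h3b. Overlap on the other strand hinders counting only where strand was ignored, which is not given. A level near 0 for such members cannot be taken as a lack of transcription. The members with the most reads were less affected: the shared part was 8.54% for Hist1h1c, 30.6% for Hist1h2bc, 0% for Hist2h2be and 28.9% for Hist1h4i.

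Testing was limited to genes with at least 1 FPKM in at least 3 of the 6 libraries, which 3 of the 67 members passed: Hist1h1c, Hist1h2bc and Hist1h4i. Of these, 2 were lower in SAHH-KO and none was higher (limma on log2(FPKM + 1), Benjamini-Hochberg adjusted p under 0.05 over all genes tested). Over all 10362 tested genes the same rule called 53.3%, with 26.8% lower and 26.4% higher. A gene called lower was therefore common in this comparison, and the count of 2 of 3 is a description of these genes.

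Hist1h1c (ENSMUSG00000036181, chromosome 13, bases 23738808 to 23740367 on the plus strand of GRCm38, 1 exon) was the only member above 5 FPKM. It stood at 8.27, 10.1 and 10.7 FPKM in control and at 3.47, 3.66 and 2.83 FPKM in SAHH-KO. Every SAHH-KO library was below every control library. The means were 9.71 ± 1.28 FPKM (SD, n = 3) and 3.32 ± 0.435 FPKM, a 2.92-fold fall. On the log2 scale it fell by 1.31 (SE 0.119, limma adjusted p = 5.12e-05). The values rest on 216, 259 and 299 reads in control and 90, 87 and 68 in SAHH-KO. The table does not tell reads of the coding part from reads after the stem-loop.

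The promoter of Hist1h1c is shown because this gene carries most of the signal. RefSeq places the 150 bases before its start at chr13:23738657-23738806 on the plus strand (GRCm38.p6), and the capitals mark AAACACA, an element known from H1 promoters, and CCAAT.
Hist1h1c: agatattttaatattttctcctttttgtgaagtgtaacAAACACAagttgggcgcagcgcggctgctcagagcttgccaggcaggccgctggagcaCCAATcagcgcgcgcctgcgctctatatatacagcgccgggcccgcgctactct
AAACACA begins 112 bases and CCAAT 54 bases before the start. Promoters from 250 bases before to 50 after the start were listed for 61 members. AAACACA, on either strand, occurred in 5 of the 6 H1 promoters and in 7.18% of all promoters listed. CCAAT occurred in every listed promoter of the H1, H2A, H2B and H3 members but in 3 of 12 H4 promoters, against 37.4% of all promoters. TATAAA occurred in 35 of 62 promoters of members and in 13.6% of all. AAACACA was added to the search after the levels were seen, and a match describes letters only.

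Hist1h2bc, an H2B gene on the plus strand of chromosome 13 (bases 23684199 to 23692908), stood at 2.48, 2.53 and 2.85 FPKM in control and at 1.72, 1.53 and 1.63 FPKM in SAHH-KO. The groups did not overlap. Its mean fell from 2.62 ± 0.203 to 1.63 ± 0.0907 FPKM (SD, n = 3), a 1.61-fold difference, with a log2 fold change of -0.46 (SE 0.0929, limma adjusted p = 0.00338). Hist1h4i, an H4 gene on the minus strand of the same chromosome (bases 22040636 to 22041362), stood at 1.23, 0.839 and 1.38 FPKM in control and at 0.661, 1.17 and 0.447 FPKM in SAHH-KO. Its groups overlapped, since SAHH-KO replicate 2 lay above control replicate 2. The means were 1.15 ± 0.281 and 0.761 ± 0.374 FPKM (log2 fold change -0.30, SE 0.171, limma adjusted p = 0.170). Without SAHH-KO replicate 2 the gene passed the threshold (log2 fold change -0.46, limma adjusted p = 0.0395), and no other alternative called it. Its adjusted p was 0.342 in limma without the filter on low values and 0.285 in limma voom on genes with at least 10 reads.

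**Figure D2:**
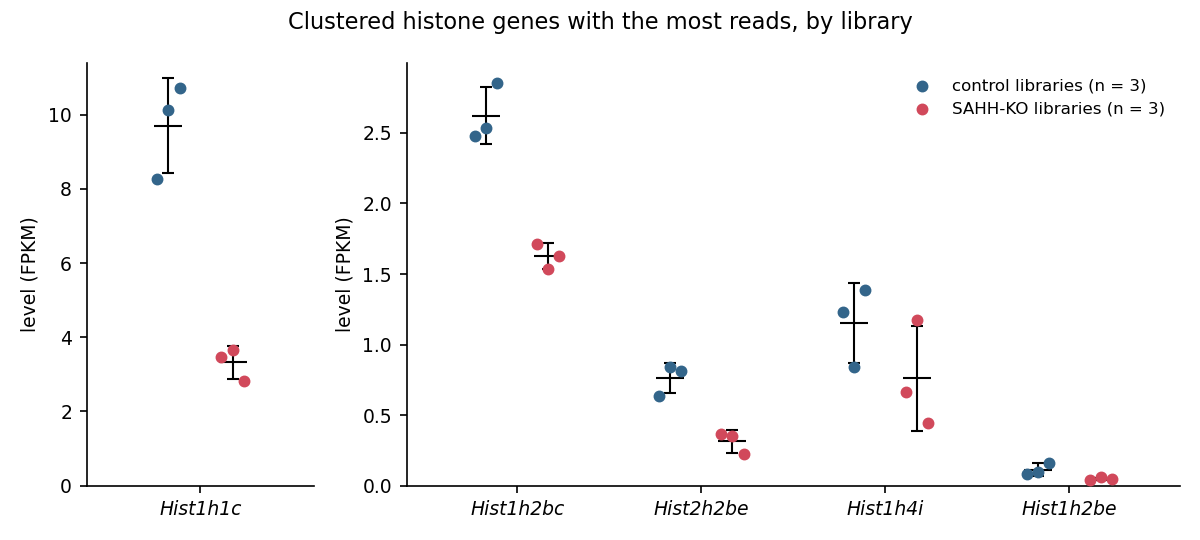
Level in FPKM (vertical axes, linear from 0) of the 5 clustered histone genes with the most reads; each point is a library, black bars give the mean and SD of 3 libraries. Hist1h1c, at left on its own scale, lies at 8.27 to 10.7 in control and 2.83 to 3.66 in SAHH-KO, while the groups of Hist1h4i overlap.

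Whole reads could be worked out from the deposited values, so members under the FPKM filter were also tested as reads. This test (limma voom on genes with at least 10 reads over the 6 libraries) was chosen after the data were seen, as were the other members named in this and the class comparisons. It covered 19 members, of which 4 were lower in SAHH-KO and none higher, where 44.3% of the 15122 genes were called, 21.8% lower and 22.5% higher. The 4 were Hist1h1c, Hist1h2bc, Hist2h2be and Hist1h3i. Unadjusted p-values under 0.05 were reached by 5 members, the 4 above and Hist2h4, whose sign was positive, and by 51.2% of all genes of that test. The limma fit without a filter on low values also called 4 of 51 members lower, where 11.3% of its 22729 genes were called lower. The sign was negative for 13 of the 19 and positive for 6, and their median log2 fold change was -0.27 against 0.01 over all genes of that test. Groups did not overlap for 5 of the 19, all lower, where 26.4% of the genes were lower without overlap and 27.2% were higher.

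Hist2h2be, an H2B gene on chromosome 3 (bases 96221119 to 96223738, plus strand), was counted at 28, 36 and 38 reads in control against 16, 14 and 9 in SAHH-KO. The lowest control library was above the highest SAHH-KO library. In FPKM the means were 0.763 ± 0.109 and 0.314 ± 0.0789 (SD, n = 3), and the log2 fold change in the read test was -1.26 (SE 0.352, limma voom adjusted p = 0.00819). Hist1h3i, an H3 gene on chromosome 13 (bases 21782960 to 21783370, minus strand), was counted at 5, 6 and 4 reads in control against 0, 0 and 1 in SAHH-KO. The ratio of SAHH-KO to control reads, scaled to library size, was 0.0720 with a counting interval of 0.00171 to 0.468 (exact binomial, 95%, counting error only). Its adjusted p was 0.0123 in limma voom. Copies elsewhere share 87.6% of its 50-base words, so its reads cannot be assigned to it with certainty.

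Hist1h2be, an H2B gene, held 6, 7 and 13 control reads and 3, 4 and 3 SAHH-KO reads. These groups did not overlap in FPKM, and the gene missed the threshold (limma voom adjusted p = 0.142). Its model shares 11.2% of its exon bases with neighbouring genes, among them Hist1h1e. Hist2h4, an H4 gene, went the other way, with 0, 2 and 6 control reads against 8, 11 and 4 in SAHH-KO. Its groups overlapped and the adjusted p was 0.0630 in limma voom. Hist1h4h, also an H4 gene, had 9, 8 and 3 reads against 1, 3 and 2, with overlap at 3 reads (adjusted p = 0.147). The members with 1 to 9 reads had 91 control reads and 40 SAHH-KO reads over all of them. Among the 51 members with any read, control had more in 35, SAHH-KO in 10, and 6 had equal numbers. These tallies are of reads not scaled to library size. The library sizes that the authors divided by were mostly larger in control. The share of all genes with more control reads was not computed, and many of these members share words with other genes, so the tallies only describe them.

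Summed over all 67 members, 381, 428 and 509 reads fell in the control libraries and 196, 208 and 162 in the SAHH-KO libraries. In FPKM the sum was 20.8 ± 2.18 in control against 10.4 ± 1.36 in SAHH-KO (SD, n = 3), a ratio of 0.498. As CPM of the library size that the authors divided by, it was 25.8 ± 2.88 and 12.0 ± 1.58, a ratio of 0.465. No test is given for these sums, since the members were chosen as a group with results known. Without Hist1h1c the FPKM ratio was 0.635, and without the 4 members with the most reads it was 0.662. Both of these sums were lower in every SAHH-KO library than in any control library.

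By class, H1 and H2B differed and the others were thin. H1 genes summed to 15.5 ± 1.91 CPM in control and 5.52 ± 0.796 in SAHH-KO (SD, n = 3), and Hist1h1c supplied 96.7% of the H1 reads. The other 5 H1 genes held 8, 5 and 6 control reads and 7, 6 and 3 SAHH-KO reads, which overlapped. Among them, Hist1h1d had 18 reads and Hist1h1e had 11 over all libraries, and the testis H1 gene Hist1h1t had none. The H1 sum thus describes Hist1h1c.

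H2B genes summed to 6.44 ± 1.02 CPM in control and 3.36 ± 0.434 in SAHH-KO, and these groups did not overlap. Beside Hist1h2bc and Hist2h2be, the 16 other H2B genes held 17, 18 and 38 control reads and 11, 14 and 6 SAHH-KO reads. H2A, the partner of H2B in the nucleosome, was the thinnest class, with 54 reads over 18 genes. All 18 H2A models shared exon bases with another annotated gene, from 9.91% in Hist1h2ac to 100% in Hist2h2aa1 and Hist2h2aa2. For most of them the overlap was on the other strand only. The low H2A count thus cannot be taken as low transcription. The H2A libraries are given next. They held 15, 13 and 6 such reads in control against 3, 7 and 10 in SAHH-KO, which overlapped. Only 1 H2A gene, Hist1h2ae, reached 10 reads.

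H3 genes held 18, 18 and 24 control reads and 15, 24 and 16 SAHH-KO reads, with means of 1.17 ± 0.148 and 1.17 ± 0.357 CPM (SD, n = 3). This class showed no difference at this depth in reads, while Hist1h3i within it was lower. In summed FPKM the H3 means were 2.00 ± 0.295 in control and 1.58 ± 0.404 in SAHH-KO, a ratio of 0.788, and the groups overlapped. Hist2h3c2 held 5, 1 and 3 control reads and 2, 8 and 7 SAHH-KO reads, and copies share 63.5% of its words. H4 genes held 31, 31 and 39 control reads and 21, 29 and 21 SAHH-KO reads. Their groups overlapped in CPM (1.97 ± 0.180 and 1.51 ± 0.346) and did not overlap in summed FPKM (2.93 ± 0.0834 and 2.03 ± 0.538), which gives short genes more weight.

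**Figure D3:**
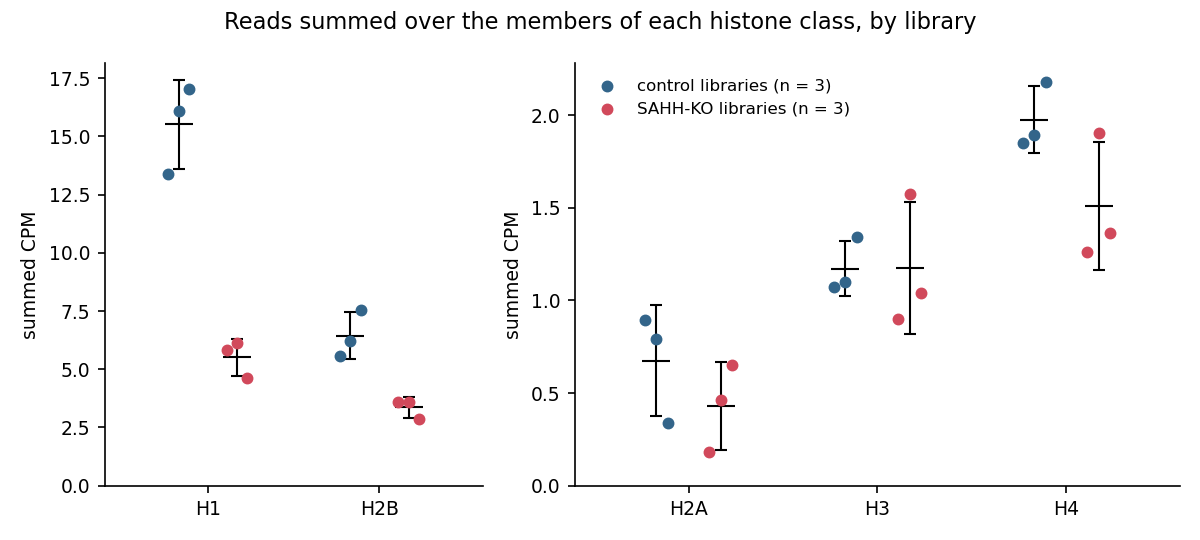
CPM, summed over the members of each histone class (vertical axes, linear from 0, with another scale for H1 and H2B than for H2A, H3 and H4); points are libraries, black bars the mean and SD of 3 libraries. H1 and H2B do not overlap between the groups, and H2A, H3 and H4 do.

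Histone genes outside the clusters moved in both directions, and most had higher FPKM than the members. This does not rank their total RNA, since a library made from poly(A) RNA sees mainly the polyadenylated form of the members. Of 12 listed genes 10 were tested, with 3 lower and 3 higher (H3f3b, H1f0 and the processed pseudogene H3f3c). These counts were close to the share over all tested genes, 26.8% lower and 26.4% higher. The median log2 fold change was -0.01, as over all tested genes. H2afz, the gene of the variant H2A.Z, fell by 0.89 on the log2 scale, from 198 ± 10.5 to 107 ± 16.3 FPKM (SE 0.113, limma adjusted p = 0.000313). H2afx, which encodes the H2A.X that is phosphorylated at DNA breaks, fell from 45.2 ± 4.40 to 20.7 ± 2.84 FPKM (-1.09, adjusted p = 0.000113). Cenpa, the centromeric H3 variant, fell from 10.3 ± 1.26 to 2.96 ± 0.4995 FPKM (-1.51, adjusted p = 2.47e-05). These 3 were lower in every SAHH-KO library than in any control library.

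H3f3b, which encodes the replication-independent H3.3, stood at 211, 228 and 229 FPKM in control and at 272, 310 and 279 FPKM in SAHH-KO. It rose by 0.36 on the log2 scale (SE 0.0800, limma adjusted p = 0.00538). This call was lost when libraries were scaled by TPM or by assigned reads (adjusted p = 0.0654 and 0.0692), and with either scaling none of the 3 higher genes of the list was called. The other H3.3 gene, H3f3a, lay at 40.2 ± 4.16 and 39.2 ± 2.09 FPKM (adjusted p = 0.797). H1f0, a linker histone gene of resting and differentiated cells, lay at 25.3 ± 1.83 and 30.2 ± 2.34 FPKM (log2 fold change 0.24, limma adjusted p = 0.0489). Its FPKM was above that of Hist1h1c in both groups, which does not rank their total RNA. Its call was lost without the filter (limma adjusted p = 0.0814) and in limma voom on genes with at least 10 reads (0.0574). Limma voom on the genes past the FPKM filter called 2 genes of the list higher.

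Of 25 tested genes that transcribe, process or degrade histone messenger RNA, 13 fell and 5 rose (median log2 fold change -0.30). Over all tested genes 26.8% were lower and 26.4% higher. Casp8ap2, which encodes FLASH, a factor of the histone locus body, fell from 3.03 ± 0.396 to 1.22 ± 0.167 FPKM (log2 fold change -0.86, limma adjusted p = 0.000330). Its partner Npat, the coactivator of histone transcription, fell from 3.53 ± 0.532 to 2.26 ± 0.128 FPKM (adjusted p = 0.00711). Slbp, the gene of the stem-loop binding protein, stood at 4.26, 6.04 and 5.93 FPKM in control and at 3.40, 4.16 and 3.49 FPKM in SAHH-KO (log2 fold change -0.44, adjusted p = 0.0214), with no overlap. Its call was lost without the filter on low values (limma adjusted p = 0.0775) and held in limma voom (0.00656). Npat and Slbp were named after their values were seen, as were H3f3a, H3f3c, H1f0, Lsm10, Lsm11 and Zfp473.

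Among the others of this list, Ncbp2, a subunit of the cap-binding complex, fell from 31.8 ± 2.45 to 13.6 ± 0.677 FPKM (log2 fold change -1.17, limma adjusted p = 1.64e-05). Snrpe, a core protein of spliceosomal particles and of the U7 particle that cuts histone transcripts, fell from 32.2 ± 4.46 to 17.2 ± 1.36 FPKM (-0.86, adjusted p = 0.000335). The RNAs of Lsm10 and Lsm11, which encode proteins specific to the U7 particle, went the other way. They were higher by 0.60 and 0.46 on the log2 scale (limma adjusted p = 0.00146 and 0.00302). Zfp473, of the same list but under the FPKM filter, had 64 control and 25 SAHH-KO reads. It was not called (log2 fold change -1.10, limma voom adjusted p = 0.0920). Tut7, which adds uridines to histone messenger RNA during its decay, rose from 4.27 ± 0.176 to 8.11 ± 0.217 FPKM (0.79, adjusted p = 7.88e-05).

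Of 31 tested histone chaperone genes, 22 fell and 2 rose (median log2 fold change -0.55), where 26.8% of all tested genes were lower and 26.4% higher. Asf1b, which hands new H3 and H4 to the replication fork, fell from 22.8 ± 1.79 to 7.36 ± 1.43 FPKM (log2 fold change -1.52, limma adjusted p = 4.06e-05). The 2 higher genes were Daxx and Tlk2. Daxx, a chaperone of H3.3, rose from 19.4 ± 1.66 to 118 ± 1.55 FPKM (2.55, adjusted p = 2.44e-07), and Tlk2, a kinase that acts on ASF1, from 6.34 ± 0.277 to 14.9 ± 0.548 FPKM (1.11, adjusted p = 1.20e-05).

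Clustered histone genes are expressed together with DNA replication genes in dividing cells. Of 46 DNA replication genes tested, 42 fell and 1 rose (median log2 fold change -1.11), where 26.8% of all tested genes were lower and 26.4% higher. Rrm2, of ribonucleotide reductase, went from 42.6 ± 2.19 to 4.80 ± 1.14 FPKM (log2 fold change -2.93, limma adjusted p = 1.93e-06). E2f1, a transcription factor of the S phase, fell by 1.52 and Rfc5, of the clamp loader, by 1.34 on the log2 scale (adjusted p = 1.09e-05 and 1.20e-05). This list ran from -2.93 (Rrm2) to 0.44 (Pola2), so a value within that range says little. Hist1h1c, at -1.31, lay within it, and Hist1h2bc, at -0.46, lay closer to 0 than the median of the list. The log2(FPKM + 1) scale understates changes of low genes, and Hist1h2bc stood at -0.68 in limma voom. In that test Rrm2, E2f1 and Rfc5 stood at -3.18, -1.80 and -1.52. The median of the list in limma voom was not computed. Whether Hist1h1c and Hist1h2bc share a cause with the list was not tested.

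**Figure D4:**
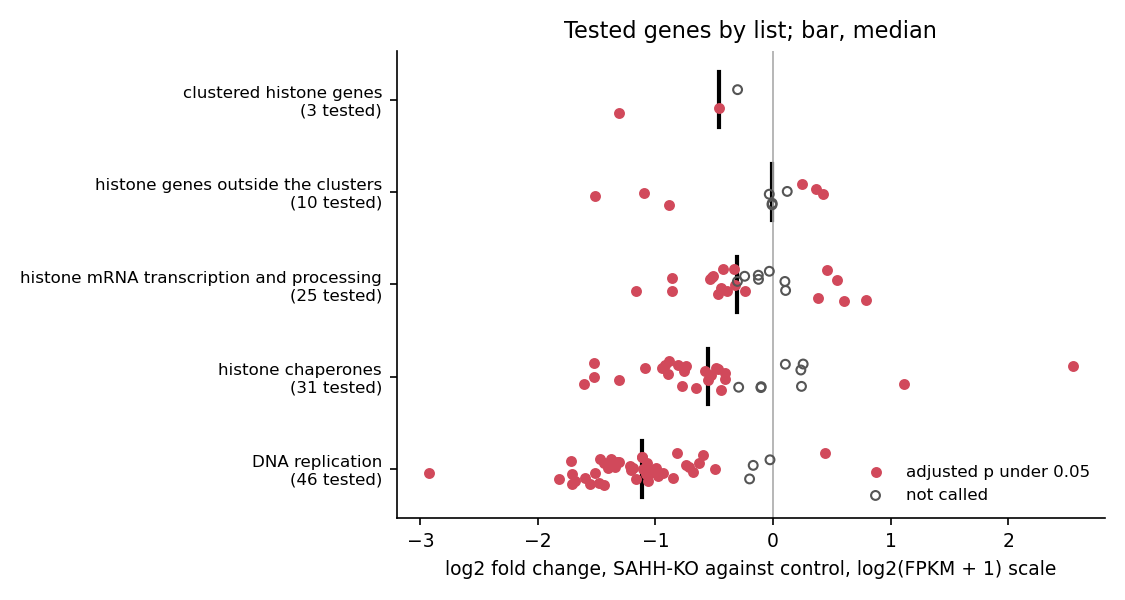
Log2 fold change of SAHH-KO against control on the log2(FPKM + 1) scale (horizontal axis) for the tested genes of each list (rows); filled red points passed an adjusted p under 0.05, open points did not, and the black bar is the median. Only 3 clustered histone genes could be tested, against 46 DNA replication genes, of which 42 were lower, where 26.8% of all tested genes were.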

How the data were processed

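The deposited data are FPKM values for 54532 genes in 6 libraries, scaled by the authors to gene length and library size. Per the submitters' processing notes FastQC, Trim Galore, STAR and featureCounts were used with builds GRCm38 and mm10; versions, strand and the treatment of reads with several positions are not given in the sources used here. Multiplied by gene length, the values came out as whole numbers of reads for 100% of the values above 0 (tolerance 0.01), which gave reads and library sizes; the sizes equal median-of-ratios scaling. Of 67 members, 67 have the same bounds in GENCODE M21.

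Genes with at least 1 FPKM in at least 3 libraries (10362) were fitted with limma 3.58.1 in R 4.3.3 (intensity trend) on log2(FPKM + 1), which understates changes of low genes, with group alone in the model and two-sided p-values. The fits were also run on simulated data in which only genes past this filter were changed. Calls of genes under the filter were thus not probed by it. Lists were those of the design, with 2 of 124 comparison symbols matched through RefSeq synonyms. Named genes were the tested members, Ahcy and up to 4 genes per list with the smallest p; 2 of these are not reported here, and others were named after their values were seen. Members and lists were chosen with earlier results of these data known. Replicates differed by more than sampling noise (chi-square per degree of freedom 3.97 to 29.1). Alternatives changed the pseudocount, filter, scaling, test, block and libraries.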

Additional observations from a re-analysis of the deposited data

How the results depend on the processing

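Depth limits these results, since 48 of the 67 members had under 10 reads. Without a filter on low values, 4 clustered histone genes were lower (51 tested, 11.3% of all genes called lower), as they were with limma voom on genes with at least 10 reads (4 of 19). Of the histone genes outside the clusters, the 3 higher ones became 1 without the filter, 0 with TPM scaling, 0 with assigned-read scaling, 1 with that voom test, and 1 to 3 with 1 library left out; the low value came without SAHH-KO replicate 1. Higher chaperone genes numbered 2 to 4 with 1 library left out, with 4 without control replicate 1. The summed ratio of all members, 0.498, was 0.416 as CPM of assigned reads, 0.635 without Hist1h1c and 0.662 without the 4 members with the most reads; the last 2 were chosen after seeing the data. For H2A it ran from 0.421 without SAHH-KO replicate 3 to 0.872 without SAHH-KO replicate 1. The median log2 fold change over all genes shifted by -0.15 with TPM and by -0.13 with assigned-read scaling. The cause of these shifts was not tested, other than that fewer or more genes or libraries entered. Deviations of same-numbered libraries were at most weakly correlated (r = 0.0955, 0.101 and -0.00557), so the numbers were not used as pairs. For libraries with different numbers r ran from -0.117 to 0.0284, below the first 2 of these values. With the replicate block, 2 clustered histone genes were lower, and 12 in place of 13 processing genes. Without the filter 10 of those were lower. None of the results recomputed under these alternatives changed its direction, and Hist1h1c and Hist1h2bc kept their calls in each of them.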

Other observations

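Outside the selection, the table lists Hist1h2al as a processed pseudogene on chromosome 13, apart from the Hist1 cluster. It was counted at 2.82, 2.70 and 2.80 FPKM in control and at 4.26, 6.20 and 3.64 FPKM in SAHH-KO, with no overlap (log2 fold change 0.57, limma adjusted p = 0.0137). The call was lost without the filter on low values (limma adjusted p = 0.0631) and in limma voom on genes with at least 10 reads (0.113). It rests on 48 control and 75 SAHH-KO reads. It was named after its values were seen. Per length it lay above Hist1h2bc in 5 of the 6 libraries and below it in control replicate 3. The table's H3f3c, also a processed pseudogene, lay at 3.67 ± 0.305 and 5.33 ± 1.02 FPKM (SD, n = 3, limma adjusted p = 0.0199). That call too was lost without the filter (0.0711), in limma voom on genes with at least 10 reads (0.158) and with TPM or assigned-read scaling.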
